A study of Mus musculus with 4 samples.

Results

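The genes described are the nuclear genes for the subunits of the mitochondrial respiratory chain and ATP synthase, and cytochrome c, in mouse oocytes. They were selected by symbol, as every gene whose name has the form Nduf with a to c, s or v and a number, Sdha to Sdhd, Uqcr with further letters or numbers, Cyc1, Cycs, Cox4 to Cox8 with a letter and a number, or Atp5 with further letters or numbers. The rule found 84 of 55335 gene IDs, which carried 83 symbols. Complex I had 35 genes, complex II 4, complex III 9, complex IV 17 and complex V (ATP synthase) 18, and cytochrome c had 1. Ndufa4, which was first described in complex I and later placed in complex IV, was counted in complex IV. One of the 84, Cox6c2, is annotated as a processed pseudogene, and the other 83 are protein-coding. A second gene ID with the symbol Atp5o shares exons with Atp5o and with its neighbour Donson and is called Atp5o-Donson here.

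The libraries were 2 from mutant oocytes and 2 from control oocytes, all of the C57BL/6 strain, with RNA amplified by Smart-Seq2, a full-length method for small amounts of RNA. The sample descriptions carry the prefix MII. The study is about mice with a point mutation at an alternative splice site of exon 3 of Ezh2, under the names Ezh2Long and Ezh2Short, and which of these forms the mutant oocytes had, how old the females were and how many oocytes a library held are not stated in the labels. Ezh2 encodes the methyltransferase subunit of Polycomb repressive complex 2. Whether the libraries of a group stem from different females is not in the labels either, and the p-values rest on the spread among these 4 samples, and that spread may be technical.

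The matrix held between 25090032 and 26617816 counts per library. Ezh2 had 176.0 and 223.1 CPM (counts scaled to a common library size) in mutants 1 and 2, against 312.6 and 239.2 CPM in controls 1 and 2, with an adjusted p of 0.219 by edgeR's quasi-likelihood test, and a count over the whole gene does not tell its splice forms apart. The 14 oocyte markers were detected in every library, with summed levels of 27844 and 30841 CPM in mutants 1 and 2 and of 31507 and 26714 CPM in controls 1 and 2. Both mutant libraries stood apart in markers of other cells. The summed level of 22 cumulus and granulosa markers was 424.1 CPM in mutant 1 and 46.9 CPM in mutant 2, against 76.5 and 56.2 CPM in the controls, with Gja1 at 99.3, 7.96, 10.9 and 0 CPM in that order. In mutant 1, 2 of the 22 markers were at 0, against 8 in mutant 2 and 8 and 12 in the controls. Of the 12 that passed the filter on low counts, mutant 1 was above both controls in 11 and mutant 2 in 1. Over all tested genes these shares were 42.7% and 39.6%. Cyp19a1 went the other way, with 16.4 and 23.6 CPM in the mutants, against 34.2 and 42.5 CPM in the controls. It was the highest of the 22 in mutant 2 and in both controls, so it weighs most in those sums. The summed level of 20 leukocyte markers was 12.96 CPM in mutant 1 and 212.8 CPM in mutant 2, against 6.16 and 6.79 CPM in the controls. In mutant 2, 1 of the 20 was at 0 and Ptprc stood at 43.2 CPM, against 9 at 0 in mutant 1 and 12 and 16 in the controls, which both had Ptprc at 0.

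The respiratory chain sits in the inner mitochondrial membrane. Complex I takes electrons from NADH and complex II takes them from succinate, both pass them to ubiquinone, complex III hands them to cytochrome c, and complex IV transfers them to oxygen. Complexes I, III and IV pump protons, and complex V uses the resulting gradient to make ATP. Apart from complex II, each complex joins nuclear-encoded subunits with a few encoded by mitochondrial DNA, and the oocyte supplies the mitochondria of the early embryo.

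The promoter sequences of 3 of these genes are shown because each belongs to a group described further on (the complex III core, the complex II anchor and the ATP synthase c ring) and holds the motif that was most frequent in the genes relative to all promoters. They are RefSeq sequences of build GRCm38.p6, the gene's own strand, from 250 bases before to 50 bases after the annotated start, 300 bases each. Uqcrc1 lies at chr9:108936398-108936697 on the plus strand, Sdhd at chr9:50603800-50604099 on the minus strand and Atp5g3 at chr2:73911277-73911576 on the minus strand. Capitals mark matches to a motif of nuclear respiratory factor 1 (NRF1), which reads GCGCA, then any base, then GCGC, or to its reverse complement.
Uqcrc1: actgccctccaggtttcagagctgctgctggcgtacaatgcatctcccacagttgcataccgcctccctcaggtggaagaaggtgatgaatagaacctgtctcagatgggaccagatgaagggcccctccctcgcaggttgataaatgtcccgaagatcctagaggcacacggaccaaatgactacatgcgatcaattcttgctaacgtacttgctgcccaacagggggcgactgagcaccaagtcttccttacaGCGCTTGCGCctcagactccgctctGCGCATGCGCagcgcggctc
Sdhd: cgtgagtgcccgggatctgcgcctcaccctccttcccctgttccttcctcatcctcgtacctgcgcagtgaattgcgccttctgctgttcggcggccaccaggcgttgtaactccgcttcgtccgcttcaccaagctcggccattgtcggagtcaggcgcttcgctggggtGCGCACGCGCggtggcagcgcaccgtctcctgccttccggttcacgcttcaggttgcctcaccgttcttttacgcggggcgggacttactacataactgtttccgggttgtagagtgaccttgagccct
Atp5g3: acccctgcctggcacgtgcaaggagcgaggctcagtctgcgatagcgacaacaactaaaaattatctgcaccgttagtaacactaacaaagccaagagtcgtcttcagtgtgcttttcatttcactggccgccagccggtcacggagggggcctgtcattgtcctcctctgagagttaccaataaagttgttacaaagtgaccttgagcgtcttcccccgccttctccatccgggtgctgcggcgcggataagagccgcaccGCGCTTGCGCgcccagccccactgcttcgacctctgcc

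In these windows Uqcrc1 had 2 matches, GCGCTTGCGC at bases 256 to 265 and GCGCATGCGC at bases 281 to 290, both in the 50 bases after the annotated start. Sdhd had 1 match, GCGCACGCGC at bases 172 to 181, before the start, and Atp5g3 had GCGCTTGCGC at bases 263 to 272. Of the 84 genes, 83 matched a RefSeq gene and 68 had a promoter in the table. The NRF1 motif was in 17 of the 68 (25.0%), against 7.17% of the promoters of 17492 protein-coding genes. The motif AANATGGC, of the factor YY1, was also in 17 of the 68 (25.0%), against 7.46% of protein-coding genes. CCGGAAGT, an ETS motif bound by GABPA, was in 5 (7.35%), against 5.69%. All were searched on both strands. The motifs were spread unevenly over the complexes. AANATGGC was in 12 of the 31 promoters of complex I, none of the 3 of complex II, none of the 5 of complex III, 1 of the 13 of complex IV and 4 of the 15 of complex V. The NRF1 motif was in 7 of 31, 2 of 3, 1 of 5, 1 of 13 and 6 of 15 in the same order. These are letter matches and show no binding. Of the 20 genes described next that were above both controls in both mutants, 17 had a promoter in the table, of which 4 held the NRF1 motif and 3 the YY1 motif. Among the other 35 tested genes with a promoter, 10 held the NRF1 motif and 8 the YY1 motif.

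Most of these genes were above both controls in mutant 1, while in mutant 2 more were below than above both controls. Of the 84 genes, 65 passed the filter on low counts. Mutant 1 lay above both controls in 56 of the 65 and below both in 7, against 42.7% and 36.7% of all 15493 tested genes. Mutant 2 lay above both controls in 20 and below both in 36, against 39.6% and 37.0% of all tested genes. In 27 of the 65 mutant 1 was above and mutant 2 below both controls, against 6.24% of all tested genes. Mutant 1 exceeded mutant 2 in 62 of the 65, against 51.7% of all tested genes, and the exceptions were Sdha, Uqcrc2 and Cox6a2. The median log2 ratio (0.5 CPM added) to the control mean was 0.85 in mutant 1 and -0.16 in mutant 2, while that of control 1 to control 2 was 0.15. Over all tested genes these medians were 0.03 in mutant 1, 0.00 in mutant 2 and 0.00 between the controls.

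Both mutants were above both controls in 20 of the 65 tested genes and below both in 7, against 28.8% and 25.7% of all tested genes. By edgeR's quasi-likelihood test with Benjamini-Hochberg adjustment over all tested genes, 2 of the 65 rose in the mutants (Uqcrc1 and Cyc1) and 1 fell (Sdhc), against 1.77% higher and 1.98% lower of all tested genes, 3.75% in either direction. An unadjusted p under 0.05 was reached by 16 of the 65, against 23.0% of all tested genes in either direction. Of the 16, 14 were higher and 2 lower, and over all 15493 tested genes 1941 were higher and 1616 lower at that p. The median log2 fold change was 0.57 over the 65 genes and 0.05 over all tested genes. It was -0.22 with mutant 1 left out and 0.96 with mutant 2 left out. Without mutant 1, 7 of the 65 were called, against 8.37% of all tested genes: Sdhc, Cox6c, Cox7a2, Cox8a and Ndufa4 lower, and Uqcrc1 and Cyc1 higher. Without mutant 2, 14 of the 65 were called, against 7.49% of all tested genes: Sdhc lower and 13 higher, namely Uqcrc1, Cyc1, Ndufa9, Ndufb7, Ndufc2, Ndufs3, Ndufs8, Uqcrb, Uqcrq, Cox6a1, Atp5g1, Atp5g3 and Atp5o. Leaving out either control left a lone control library, and calls were then few over all tested genes and absent among the 65. That absence therefore does not set the 65 apart from other genes. The log2 fold change without control 1 was 6.82 for Uqcrc1, 3.996 for Cyc1 and -1.42 for Sdhc. It was 3.81, 2.87 and -1.61 without control 2, in the same order.

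The filter let some genes through on the mutant libraries alone. Both controls were over its cutoff of 0.376 CPM in 58 of the 65, 1 control was in 5 and none in 2. Among the 58, mutant 1 was above both controls in 49, mutant 2 was below both in 35, and the call that remained was Sdhc, since Uqcrc1 and Cyc1 each had 1 control over the cutoff. In 22 of the genes the mean over the libraries reached 10 CPM, and among these mutant 1 was above both controls in 16 and below in 5, against 35.7% and 44.3% of the 6534 genes at that level. Mutant 2 was above both controls in 3 and below in 17 of the 22, against 36.5% and 40.6%. The median log2 fold change of the 22 was 0.08.

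**Figure D1:**
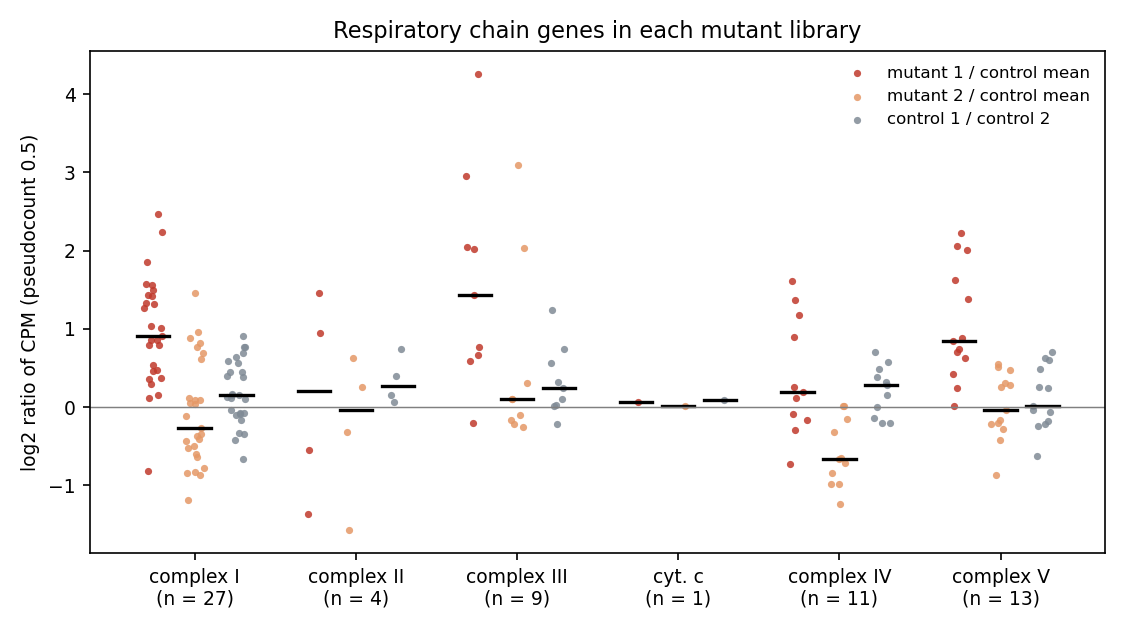
Each point is a tested gene, grouped by complex, with n the number of tested genes. The vertical axis gives the log2 ratio of CPM (0.5 added) of mutant 1 to the control mean, of mutant 2 to the control mean and of control 1 to control 2, and bars are medians. In complex I the median was 0.91 in mutant 1 and -0.27 in mutant 2, and in complex IV it was 0.19 in mutant 1 and -0.66 in mutant 2.

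The ratio of mutant 1 to mutant 2 was larger in shorter genes. Gene length here is the RSEM length from 1 of the libraries. Over the 65 genes the log2 ratio of mutant 1 to mutant 2 had a Spearman rho of -0.43 with it, and -0.10 over all tested genes. With the mean CPM the rho was -0.29 over the 65 genes and -0.11 over all tested genes. Over the 22 genes of at least 10 CPM it was -0.59 both with length and with the mean CPM. These are values across genes of the same libraries and carry no p. Of 42 genes of at most 800 bases, mutant 1 was above both controls in 36 and mutant 2 below both in 26. Of 23 longer ones, mutant 1 was above in 20 and mutant 2 below in 10. Among the 1934 tested genes of at most 800 bases in the whole table, mutant 1 was above both controls in 37.5% and mutant 2 below both in 49.2%. The first is less than the 42.7% of tested genes of any length, and the second exceeds their 37.0%. The summed level of 72 tested cytosolic ribosomal protein genes, another set of short transcripts, was 2362 CPM in mutant 1 and 1024 CPM in mutant 2, against 1285 and 1125 CPM in the controls. The part of the cumulus markers, the leukocyte markers and this length relation in the pattern of the respiratory chain genes was not tested. In bulk libraries such as these, fewer cells of a type and less RNA per cell cannot be told apart.

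**Figure D2:**
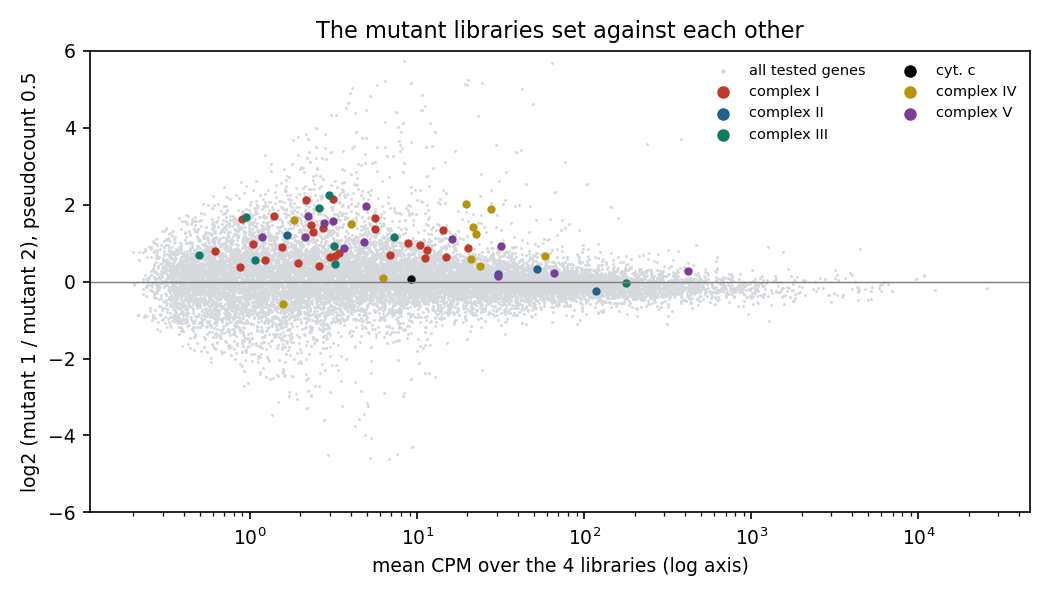
The horizontal axis is the mean CPM of the 4 libraries on a log scale and the vertical axis the log2 ratio of CPM of mutant 1 to mutant 2 (0.5 added). Grey points are all tested genes, of which 3 lie outside the axis limits, and coloured points are the respiratory chain genes by complex. Of the 65 coloured points, 62 lie above 0.

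The complexes differed in how their summed level split between the mutants. Complex I summed to 236.7 CPM in mutant 1 and 110.7 CPM in mutant 2, against 124.2 and 114.5 CPM in the controls. Complex II summed to 185.7 and 182.3 CPM in the mutants, against 229.3 and 207.6 CPM in the controls, and was the complex in which both mutants lay below both controls. Complex III summed to 213.3 and 187.7 CPM in the mutants, against 199.3 and 193.1 CPM in the controls. Complex IV summed to 269.3 CPM in mutant 1 and 124.1 CPM in mutant 2, against 229.1 and 210.8 CPM in the controls, so that mutant 2 was at 0.564 times the control mean. Complex V summed to 706.5 CPM in mutant 1 and 535.8 CPM in mutant 2, against 544.8 and 565.9 CPM in the controls. Per length, on the deposited TPM, the place of the mutants changed in complexes II, III and V. Complex II summed to 233.1 and 184.3 TPM in the mutants, against 185.4 and 182.5 TPM in the controls. Complex III summed to 690 and 531 TPM in the mutants, against 490 and 524 TPM in the controls, with both mutants above both controls. Complex V summed to 1710 and 1150 TPM in the mutants, against 1055 and 1181 TPM in the controls. In CPM on library sizes only, mutant 2 lay between the controls in complexes III and V.

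**Figure D3:**
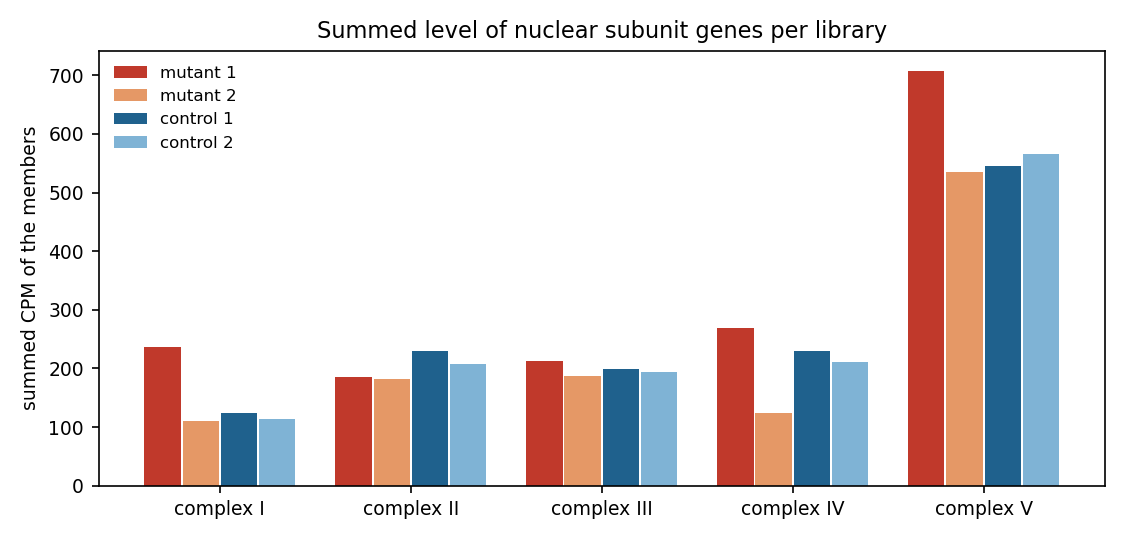
Bars give the summed CPM of the genes of each complex in mutant 1, mutant 2, control 1 and control 2. Mutant 1 was highest in complexes I, III, IV and V. Mutant 2 was lowest of the 4 libraries in each complex on these scaled CPM, but not in complexes III and V on library sizes only.

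A few genes supplied most of the transcript level of the chain. The 5 most abundant of the 84 genes took 60.8% of the summed TPM in mutant 2 and the smallest share in mutant 1, against 58.4% and 62.6% in controls 1 and 2. At least 100 TPM was reached by 12 and 8 of the genes in the mutants, against 10 and 9 in the controls. Under 1 TPM lay 8 genes in mutant 1 and 16 in mutant 2, against 16 and 20 in the controls.

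Complex I carries 7 nuclear core subunits, which hold the flavin, the iron-sulfur clusters and part of the quinone site, and a large set of supernumerary subunits around them. In mutant 1 all 7 core genes were above both controls, and in mutant 2, 4 were above and 1 was below. Of the 20 tested supernumerary genes, mutant 1 was above both controls in 18 and mutant 2 was above in 5 and below in 14. Over all tested genes mutant 1 was above both controls in 42.7%, and mutant 2 above in 39.6% and below in 37.0%. No complex I gene passed the adjusted threshold by edgeR, against 3.75% of all tested genes in either direction. Of the 27 tested, 7 had an unadjusted p under 0.05 by edgeR, all higher in the mutants. Over all 15493 tested genes, 1941 were higher at that p, and 23.0% reached it in either direction. DESeq2 called 4 complex I genes, against 12.9% of all tested genes.

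Ndufs8, a core subunit with iron-sulfur clusters, had 5.75 and 2.07 CPM in the mutants, against 1.17 and 0.476 CPM in the controls, and the groups did not overlap (log2 fold change 2.24, edgeR adjusted p 0.131). Ndufs7, which carries the last iron-sulfur cluster before the quinone, had 1.42 and 0.601 CPM in the mutants, against 0.201 and 0.238 CPM in the controls, with neither control over the filter's cutoff, so that it was tested through the mutant libraries alone.

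Among the 20 tested supernumerary genes, 5 (25.0%) were above both controls in both mutants, against 28.8% of all tested genes. Ndufa9, at the joint of the 2 arms of the complex, had 18.4 and 11.8 CPM in the mutants, against 6.24 and 7.98 CPM in the controls (log2 fold change 1.09, edgeR adjusted p 0.115). Ndufc2, in the membrane arm, had 12.3 and 7.40 CPM in the mutants, against 4.47 and 3.14 CPM in the controls (log2 fold change 1.37, edgeR adjusted p 0.106). Neither pair of groups overlapped, and both genes were called by DESeq2. Ndufv3, of the NADH-binding part, had 5.86 and 3.49 CPM in the mutants, against 1.69 and 1.83 CPM in the controls. Ndufb7, on the side of the intermembrane space, had 4.05 and 0.902 CPM in the mutants, against 0.362 and 0.278 CPM in the controls, where neither control reached the filter's cutoff. Ndufa10, in the membrane arm, had 2.66 and 1.77 CPM in the mutants, against 1.65 and 1.71 CPM in the controls. Mutant 2 was just above control 2 there. Per length the groups overlapped for Ndufa10, with 2.95 and 4.75 TPM in the mutants, against 7.48 and 3.44 TPM in the controls. They also overlapped for Ndufv3, with 15.5 and 5.22 TPM in the mutants, against 5.69 and 2.67 TPM in the controls. Most of the mutant mean of Ndufb7 came from mutant 1, and its log2 fold change of 2.93 had an edgeR adjusted p of 0.109. Ndufs6, a zinc-binding accessory subunit, was not tested; it had 28 and 5 counts in the mutants and 0 in both controls, at least 9.86-fold higher against a floor of 3 counts over the controls.

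The most abundant complex I genes per length were Ndufs4, Ndufb5 and Ndufs3. Ndufs4, an accessory subunit of the NADH-binding part, had 83.3 and 43.1 TPM in the mutants, against 63.9 and 54.5 TPM in the controls. Ndufb5, in the membrane arm, had 58.3 and 24.8 TPM in the mutants, against 39.4 and 37.9 TPM in the controls. In both genes mutant 1 was the highest library and mutant 2 the lowest, so that the groups overlapped. Ndufs3, a core subunit, had 27.0 and 10.3 CPM in the mutants, against 8.22 and 11.2 CPM in the controls, with mutant 2 between the controls. The exception in complex I was Ndufs5, an accessory subunit, which had 0.533 and 0.301 CPM in the mutants, against 1.57 and 1.07 CPM in the controls, the one complex I gene in which mutant 1 was below both controls (edgeR adjusted p 0.219). It was singled out after its values were seen.

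Complex II is encoded by 4 nuclear genes and has no mitochondrially encoded subunit. Of its membrane anchors, Sdhc fell in the mutants, and Sdhd was above both controls in both mutants without passing the threshold. Sdhc, which with Sdhd holds the heme and binds ubiquinone (chromosome 1, 171127165 to 171150603, mm10), had 17.2 CPM in mutant 1 and 14.8 CPM in mutant 2, against 47.4 CPM in control 1 and 42.8 CPM in control 2. Both mutants lay at less than either control, 2.82-fold lower on average, and Sdhc fell with a log2 fold change of -1.50 ± 0.198 (SE) and an adjusted p of 0.018 by edgeR. The edgeR adjusted p was 0.144 without control 1 and 0.128 without control 2. With RSEM's expected counts it was 0.014, although the matrix held 1.25 and 1.22 times the expected count of Sdhc in the mutants, against 1.13 and 1.12 times in the controls.

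Sdhd, the other anchor (chromosome 9, 50596357 to 50603812, mm10), had 73.5 CPM in mutant 1 and 58.5 CPM in mutant 2, against 42.9 CPM in control 1 and 32.6 CPM in control 2. Both mutants were above both controls, 66.0 ± 10.6 CPM against 37.8 ± 7.29 CPM (SD, n = 2 each), with a log2 fold change of 0.81 ± 0.213 (SE) and an adjusted p of 0.086 by edgeR. DESeq2 gave an adjusted p of 0.015. The ratio of Sdhd to Sdhc per length was 16.4 and 15.0 in TPM in the mutants, against 3.12 and 2.63 in the controls.

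The head of complex II is made of Sdha, the flavoprotein that oxidises succinate, and Sdhb, which carries the iron-sulfur clusters. Sdha had 91.5 and 107.8 CPM in the mutants, against 137.6 and 131.6 CPM in the controls, without overlap (log2 fold change -0.43, unadjusted p 0.027, edgeR adjusted p 0.157). Sdhb had 3.52 and 1.24 CPM in the mutants, against 1.33 and 0.595 CPM in the controls, with mutant 2 between the controls. Sdhd took 56.0% and 56.1% of the complex II TPM in the mutants, and the leading gene in the controls was Sdha, with 54.1% and 60.0%.

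**Figure D4:**
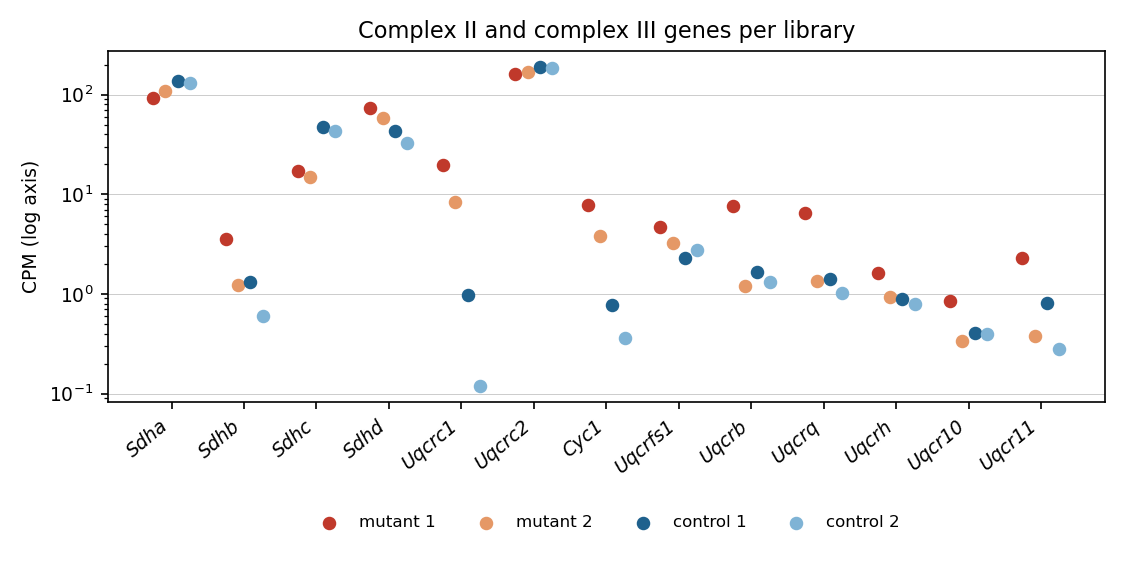
CPM on a log axis for the genes of complexes II and III in mutant 1, mutant 2, control 1 and control 2. Sdhc is lower in both mutants (17.2 and 14.8 CPM) than in both controls, and Sdhd, Uqcrc1 and Cyc1 are higher in both mutants than in both controls.

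Complex III held the largest fold changes among the 65 tested genes, in genes that were near the detection limit in controls. Uqcrc1, a core protein on the matrix side (chromosome 9, 108936633 to 108949623, mm10), had 19.5 CPM in mutant 1 and 8.41 CPM in mutant 2, against 0.966 CPM in control 1 and 0.119 CPM in control 2, which were 549, 224, 24 and 3 counts. Both mutants were above both controls and the group means differed 25.7-fold, with control 2 at 3 counts. Uqcrc1 rose with a log2 fold change of 4.68 ± 0.886 (SE) and an adjusted p of 0.046 by edgeR. The edgeR adjusted p was 0.055 on library sizes alone, without scaling factors, 0.093 without control 1 and 0.186 without control 2.

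Cyc1, the cytochrome c1 subunit that passes electrons to cytochrome c (chromosome 15, 76343523 to 76346260, mm10), had 7.71 CPM in mutant 1 and 3.83 CPM in mutant 2, against 0.765 CPM in control 1 and 0.357 CPM in control 2. The groups did not overlap and the means differed 10.3-fold. Cyc1 rose with a log2 fold change of 3.35 ± 0.618 (SE) and an adjusted p of 0.043 by edgeR, which was 0.051 on library sizes alone, 0.171 without control 1 and 0.225 without control 2. For both genes mutant 1 exceeded mutant 2, and the log2 fold change without mutant 1 was 3.92 for Uqcrc1 and 2.74 for Cyc1.

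The partner of Uqcrc1 in the complex III core, Uqcrc2, was far more abundant. It had 162.5 and 168.1 CPM in the mutants, against 190.1 and 186.0 CPM in the controls, with both mutants below both controls (log2 fold change -0.19, edgeR adjusted p 0.461). Per length Uqcrc2 had 495.4 and 470.0 TPM in the mutants, against 452.0 and 494.5 TPM in the controls, and took 71.8% and 88.5% of the complex III TPM in the mutants, against 92.3% and 94.4% in the controls. The ratio of Uqcrc2 to Uqcrc1 was 20.9 and 46.7 in TPM in the mutants, against 461.2 and 3804 in the controls. Uqcrc2 transcripts thus outnumbered those of Uqcrc1 in all 4 libraries, by a smaller factor in both mutants. Uqcrfs1, the Rieske iron-sulfur protein, had 4.65 and 3.23 CPM in the mutants, against 2.30 and 2.74 CPM in the controls, without overlap (edgeR adjusted p 0.420). Uqcrb and Uqcrq, small subunits, had 7.67 and 6.50 CPM in mutant 1 and 1.20 and 1.35 CPM in mutant 2; the controls had 1.65 and 1.31 CPM of Uqcrb and 1.41 and 1.03 CPM of Uqcrq. In both genes mutant 1 lay above the other 3 libraries.

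Cycs, the mobile carrier between complexes III and IV, had close levels in all 4 libraries. It had 9.45 and 9.05 CPM in the mutants, against 9.30 and 8.69 CPM in the controls, with a log2 fold change of 0.04 ± 0.276 (SE) and an edgeR adjusted p of 0.951. The span of all 4 libraries was under 1 CPM in the matrix. On RSEM's expected counts it was wider, with 10.2 and 10.9 CPM in the mutants, against 12.5 and 11.0 CPM in the controls.

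In summed CPM, complex IV was the complex in which mutant 2 was lowest relative to the controls. Of its 11 tested genes, mutant 1 was above both controls in 7 and below in 3, against 42.7% and 36.7% of all tested genes. Mutant 2 was above in 1 and below in 9, against 39.6% and 37.0% of all tested genes. None of the 11 passed the threshold by edgeR or by DESeq2, against 3.75% and 12.9% of all tested genes in either direction. None had an unadjusted p under 0.05 by edgeR, against 23.0% of all tested genes. Without mutant 1, Cox6c, Cox7a2, Cox8a and Ndufa4 were called lower, and without mutant 2, Cox6a1 was called higher.

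Cox8a, the most abundant complex IV gene per length, had 59.9 and 37.3 CPM in the mutants, against 64.2 and 70.6 CPM in the controls. Cox5a, a matrix-side subunit, had 22.7 and 16.9 CPM in the mutants, against 29.4 and 26.4 CPM in the controls. In CPM both mutants were below both controls in these 2 genes, with edgeR adjusted p of 0.308 for Cox8a and 0.257 for Cox5a. Per length the groups overlapped for Cox8a, with 397 and 252 TPM in the mutants, against 351 and 418 TPM in the controls. Cox6c, a single-pass membrane subunit, had 47.7 CPM in mutant 1 and 12.6 CPM in mutant 2, against 29.8 and 21.2 CPM in the controls, and Cox7a2, another small membrane subunit, had 29.0 and 11.9 CPM, against 27.4 and 21.0 CPM. In both genes mutant 1 was the highest library and mutant 2 the lowest. Ndufa4 had 27.6 and 9.99 CPM in the mutants, against 26.9 and 21.5 CPM in the controls, and Cox7b had 7.56 and 2.37 CPM, against 3.79 and 2.38 CPM.

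Several complex IV subunits have isoforms that are restricted to muscle or testis in adult tissues, and most of these were absent or rare here. Cox7a1 and Cox8b, muscle isoforms, and Cox7b2, a testis isoform, had 0 counts in all 4 libraries. Cox8c, a testis isoform, had 0 and 1 counts in the mutants, against 2 and 6 counts in the controls, and was not tested. Cox6b2, known from testis, was the exception: it had 184.4 and 118.5 TPM in the mutants, against 148.2 and 196.5 TPM in the controls, while its widespread partner Cox6b1 had 7.71 and 1.65 TPM in the mutants, against 1.97 and 1.34 TPM in the controls. The ratio of Cox6b2 to Cox6b1 was 23.9 and 71.8 in TPM in the mutants, against 75.2 and 146.6 in the controls. In the raw counts of the matrix the same ratio was 5.26 and 14.0 in the mutants, against 15.5 and 37.6 in the controls, and the matrix held 2.98 times RSEM's expected count of Cox6b1 in mutant 1 and 3.18 times in control 1, so the level of Cox6b1 is uncertain. Neither gene passed the threshold, with edgeR adjusted p of 0.481 for Cox6b2 and 0.363 for Cox6b1. For subunit 6a the widespread gene led in every library: Cox6a1 had 224.3 and 52.9 TPM in the mutants, against 78.9 and 67.0 TPM in the controls, and the heart and muscle isoform Cox6a2 had 3.20 and 5.97 TPM, against 4.17 and 5.75 TPM. Cox6a2 was below both controls in both mutants in CPM, and its level in mutant 1 was below that in mutant 2.

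**Figure D5:**
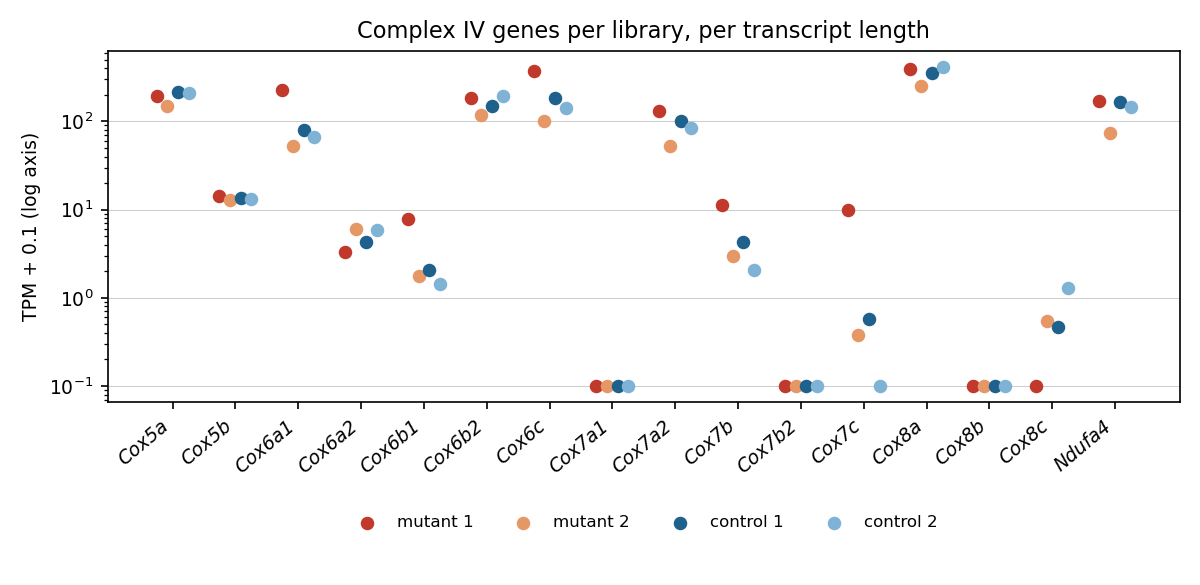
TPM plus 0.1 on a log axis for the 16 protein-coding complex IV genes in mutant 1, mutant 2, control 1 and control 2. Cox7a1, Cox7b2 and Cox8b were at 0 in all 4 libraries, Cox6b2 lay far above Cox6b1 in each library, and mutant 2 was the lowest library for Cox6c, Cox7a2 and Ndufa4.

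In complex V mutant 1 was above both controls in all 13 tested genes, against 42.7% of all tested genes. Mutant 2 was above in 5 and below in 7, against 39.6% and 37.0% of all tested genes. None passed the threshold by edgeR or by DESeq2, against 3.75% and 12.9% of all tested genes in either direction. Of the 13, 4 had an unadjusted p under 0.05 by edgeR, all higher. Over all 15493 tested genes, 1941 were higher at that p, and 23.0% reached it in either direction. The F1 head, which makes ATP, was the most abundant part. Atp5b, its catalytic beta subunit, had 475.7 and 390.5 CPM in the mutants, against 393.0 and 409.3 CPM in the controls, with mutant 1 highest and mutant 2 lowest (log2 fold change 0.11, edgeR adjusted p 0.730). Per length it had 1071 and 829 TPM in the mutants, against 767 and 870 TPM in the controls, and took between 62.6% and 73.6% of the complex V TPM. Atp5a1, the alpha subunit that alternates with beta in equal number, had 26.4 and 24.5 TPM in the mutants, against 12.7 and 22.0 TPM in the controls, so that the ratio of Atp5b to Atp5a1 was between 33.9 and 60.4. Atp5c1, the gamma subunit of the rotor, had 68.8 and 59.3 CPM in the mutants, against 68.4 and 67.9 CPM in the controls.

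The c ring, turned by the proton flow, is built from 1 mature protein that 3 genes encode. Atp5g1 had 6.60 and 1.99 CPM in the mutants, against 1.61 and 0.794 CPM in the controls (log2 fold change 1.84, edgeR adjusted p 0.188). Atp5g2 had 6.64 and 3.42 CPM in the mutants, against 2.01 and 2.46 CPM in the controls (log2 fold change 1.17, edgeR adjusted p 0.209). In these 2 genes the groups did not overlap. Atp5g3 had 12.5 and 2.82 CPM in the mutants, against 2.86 and 1.71 CPM in the controls, with mutant 2 between the controls (log2 fold change 1.75, edgeR adjusted p 0.213). Mutant 1 was the highest library for all 3, and their unadjusted p was under 0.05.

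In the stalk that holds the head still, mutant 1 was above both controls in all 4 tested genes, against 42.7% of all tested genes. Mutant 2 was above in 1 and below in 3, against 39.6% and 37.0% of all tested genes. Atp5o, the subunit that ties the stalk to the head, had 5.50 and 1.35 CPM in the mutants, against 1.13 and 0.873 CPM in the controls, without overlap (edgeR adjusted p 0.217). Reads shared with Atp5o-Donson, which had 7.67 and 3.53 CPM in the mutants, against 3.99 and 4.09 CPM in the controls, make both values uncertain. Atp5h, subunit d, had 25.7 and 11.7 CPM in the mutants, against 12.6 and 14.7 CPM in the controls, with mutant 2 below both controls. Among genes that were not tested, Atp5j2 had 36 and 9 counts in the mutants, against 1 count in each control.

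The assembly factors of the complexes, a list chosen with earlier results of these data known, are given for comparison. Of 55 factors 47 were tested, mutant 1 was above both controls in 23 (48.9%, against 42.7% of all tested genes) and mutant 2 in 14 (29.8%, against 39.6%), and the median log2 fold change was 0.04. By edgeR 1 rose (2.13%, against 1.77% of all tested genes) and 2 fell (4.26%, against 1.98%). Sdhaf4, which helps Sdha join complex II, had 86.6 and 91.7 CPM in the mutants, against 149.7 and 144.9 CPM in the controls, and fell with a log2 fold change of -0.72 and an edgeR adjusted p of 0.047. Fmc1, a factor of ATP synthase assembly known from yeast, had 18.0 and 17.4 CPM in the mutants, against 35.0 and 37.9 CPM in the controls, and fell with a log2 fold change of -1.04 and an edgeR adjusted p of 0.043. Foxred1, a complex I factor, had 1.17 and 0.977 CPM in the mutants and 0 in both controls, at least 17.9-fold higher against a floor of 3 counts over the controls, and its edgeR adjusted p was 0.048. It passed the filter on low counts through the mutant libraries alone.

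Of 13 regulators of these genes, a list chosen in the same way, 12 were tested and none was called by edgeR, with 1 at an unadjusted p under 0.05. That gene was Yy1, with 9.02 and 5.15 CPM in the mutants, against 2.86 and 1.39 CPM in the controls, without overlap (log2 fold change 1.74, unadjusted p 0.013, edgeR adjusted p 0.109). Nrf1 had 43.7 and 45.0 CPM in the mutants, against 38.6 and 47.1 CPM in the controls. Of 7 further subunit genes outside the symbol rule 6 were tested and none was called, with 2 at an unadjusted p under 0.05: Cox4i1, the main isoform of a complex IV subunit, had 12.1 and 2.37 CPM in the mutants, against 0.966 and 0.595 CPM in the controls (edgeR adjusted p 0.082), and Ndufab1, the mitochondrial acyl carrier protein, had 22.2 and 21.0 CPM, against 35.9 and 37.1 CPM (edgeR adjusted p 0.074). Of 13 protein-coding genes in mitochondrial DNA, 12 were below both controls in each mutant, against 25.7% of all tested genes, and 3 (mt-Nd3, mt-Nd4l and mt-Co3) fell by edgeR, against 1.98%. The size of these 3 differences depended on the counting. For mt-Nd3 the matrix gave 2.06 and 1.77 CPM in the mutants, against 82.6 and 65.9 CPM in the controls, and the RSEM tables gave 43.5 and 70.4 TPM, against 190.6 and 194.4 TPM. For mt-Nd4l the matrix gave 2.77 and 2.52 CPM in the mutants, against 92.0 and 71.8 CPM in the controls, and the RSEM tables gave 107.1 and 39.9 TPM, against 162.2 and 137.8 TPM. For mt-Co3 the matrix gave 33.8 and 33.1 CPM in the mutants, against 105.5 and 87.1 CPM in the controls, and the RSEM tables gave 583 and 568 TPM, against 716 and 632 TPM.

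The deposited matrix was compared with the RSEM tables. In the 55 genes with at least 10 expected counts in every library, the matrix count was between 0.524 and 3.05 times the RSEM expected count, with a median of 1.07. Of 64 genes tested in both, 60 had the same sign of fold change, and RSEM's counts called the same 3 genes, against 3.89% of all genes tested in them. Exons of 29 of the 84 genes overlap another gene, Ndufa9 among them, and those of Uqcrc1, Cyc1, Sdhc and Sdhd do not.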

How the data were processed

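RNA of mouse oocytes was amplified with Smart-Seq2, per the labels, and the 2 mutant and 2 control libraries were grouped by their titles. The authors deposited a matrix of raw counts per gene and, per library, a table whose file header is that of RSEM gene results. Per the file headers these tables hold expected counts, TPM, FPKM (not used here) and gene lengths in bases. Cutadapt 1.16, STAR, RSEM and build mm10 are named per the submitters' processing notes. Tool settings, the program that counted for the matrix and any use of strand are not stated there, so values of overlapping and antisense genes and of genes with processed copies are uncertain. No row of the matrix lacked a gene name, and 55154 of 55335 IDs matched GENCODE M21, from which coordinates and gene types were taken.

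The matrix was tested as a whole in R 4.3.3 with edgeR 4.0.16 (TMM, filterByExpr, glmQLFit, glmQLFTest, genotype as the only term, 2 residual degrees of freedom), with Benjamini-Hochberg adjusted p under 0.05 over 15493 genes; the common biological coefficient of variation was 0.353. The scripts were tested on simulated counts. CPM are on TMM-scaled library sizes, and the SE is the log2 fold change divided by the square root of F. Single libraries were compared with the controls on log2 of CPM plus 0.5, without a test. Expected counts were rounded for the edgeR alternative, and DESeq2 1.42.0 was another. A gene at 0 in both controls was given a floor of 3 counts for the group (0.0600 CPM), which covers counting error only. The genes and lists were chosen with earlier results of these data known. Named genes were all past the threshold or with unadjusted p under 0.05, the 3 highest in TPM of each complex, those over 2-fold from the controls in both mutants at 10 CPM or more, the subunit c genes and the tissue-restricted complex IV isoforms with their partners; a gene that this rule chose is not reported here. Other genes named to account for exceptions were chosen after their values were seen. The list names Atp5if1, Usmg5 and Coa1 matched no gene. The 4 erythroid markers summed to 1.78 and 0.526 CPM in the mutants and to 2.13 and 0.397 CPM in the controls.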

Additional observations from a re-analysis of the deposited data

How the results depend on the processing

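All genes called by edgeR numbered 581; the count was 1322 with no filter, 1993 with DESeq2, and between 41 (without control 2) and 1296 (without mutant 1) when a library was left out, where a lone library is assumed to vary like the others. Of the respiratory chain genes 3 were called, against 1 on library sizes only (Sdhc), 1 at 10 CPM or more (Sdhc) and 8 with DESeq2, and between 0 (without either control) and 14 (without mutant 2) when a library was left out. The titles' replicate numbers share only a number; deviations of same-numbered libraries correlated at 0.18. With that number as a replicate block, 1213 of all genes and 6 respiratory chain genes were called, with Ndufs8 and Sdhd among those added.

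Leaving out a library put the median log2 fold change between -0.22 and 0.96 over the 65 genes, -0.33 and 1.12 in complex I, 0.0040 and 0.31 in II, 0.13 and 2.08 in III, -0.70 and 0.19 in IV and -0.05 and 0.91 in V. At 10 CPM or more it was -0.39 in complex II and -0.14 in III (Uqcrc2 alone). The ratio of summed levels, mutant over control, was 0.84 in complex II, 1.13 in TPM and 0.90 on library sizes only; 1.02 in complex III and 1.20 in TPM; 1.03 for Cycs and 1.10 on library sizes only. At 10 CPM or more mutant 1 was above both controls in 16 genes, and mutant 2 above in 3 and below in 17.

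When a library was left out the sign turned for 12 named genes, whose log2 fold changes lay between -0.55 and 0.48 (Ndufb5), -0.44 and 0.48 (Ndufs4), -0.32 and 2.37 (Uqcrb), -0.70 and 1.40 (Cox6a1), -0.0057 and 2.02 (Cox6b1), -1.03 and 0.90 (Cox6c), -1.04 and 0.26 (Cox7a2), -0.40 and 1.29 (Cox7b), -0.053 and 0.25 (Atp5b), -0.22 and 0.014 (Atp5c1), -0.23 and 0.91 (Atp5h) and -0.044 and 0.090 (Cycs). The sign also turned with the replicate block for Ndufb5 (-0.017) and Cox6c (-0.022), on library sizes only for Atp5c1 (0.0051), and with RSEM counts for Cycs (-0.16). Of 402 values of the 35 genes that the naming rule chose under the alternatives, 352 kept direction and call, 22 gained a call, 8 lost one and 20 turned; the causes were not tested. Library sizes only moved the median of all genes to 0.14 from 0.05, and the share of calls that were higher was 47.2%, 54.1% with upper-quartile scaling, 43.5% with RSEM counts and 60.2% with the block. The counts in the controls were 24 and 3 for Uqcrc1 and 19 and 9 for Cyc1.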
